A study of Mus musculus with 12 samples.

Results

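The genes described here are 10 genes that astrocytes switch on or raise when they become reactive: Gfap, Serpina3n, S1pr3, Vim, Lcn2, Steap4, Osmr, Cd44, Cp and Timp1. All probe sets that the annotation of the array assigned to 1 of these symbols and to no other gene were taken, which gave 29 of the 45037 probe sets tested. Wild type mice (C57 per the labels) were the source of the ventral tegmental area (VTA), part of the midbrain and home to dopaminergic cells, whose RNA was measured at 2 months (young), 10 months (middle aged) and 18 months (late-middle aged). The animals carried no transgene and received no treatment, and the whole region was dissected, so astrocytes were measured together with neurons and other glia. Each of the 12 Affymetrix arrays, 4 per age, held RNA pooled from 5 mice, so errors describe pools rather than individual animals. Arrays 3 and 4 of the young age gave almost the same values (r = 0.998 over probe sets, against 0.967 to 0.996 in the 17 other pairs of the same age), differed by less than the spread between other replicates and were counted as 1 sample. The samples numbered 3 (young), 4 (10 months) and 4 (18 months).

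Astrocytes respond to injury, inflammation and ageing by enlarging their processes, adding intermediate filaments and releasing acute phase and matrix proteins, a state called reactive. Cytokines of the interleukin 6 family, including oncostatin M, act through receptors that share the gp130 chain and through the kinase Jak1 and the transcription factor Stat3, and this route is known to drive Gfap and other genes of the reactive state. Microglia, the resident macrophages of the brain, release further signals that induce it. In bulk tissue, fewer cells of a type and less RNA per cell cannot be told apart. Levels are log2 values, on which a difference of 1 is a doubling, and levels of different probe sets are not compared, because each probe set has its own brightness.

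The promoters of the 3 genes with a called change and of Lcn2, which stood out in 1 sample, are shown because they are the genes on which the results turn. Each sequence holds the 250 bases before an annotated start in RefSeq (assembly GRCm38.p6), read 5′ to 3′ on the strand of the gene, and capitals mark matches to the motifs searched. Serpina3n lies on the plus strand (chr12:104406458-104406707), Cp on the plus strand (chr3:19956999-19957248, the downstream of its starts), S1pr3 on the plus strand (chr13:51408368-51408617) and Lcn2 on the minus strand (chr2:32387740-32387989).
Serpina3n: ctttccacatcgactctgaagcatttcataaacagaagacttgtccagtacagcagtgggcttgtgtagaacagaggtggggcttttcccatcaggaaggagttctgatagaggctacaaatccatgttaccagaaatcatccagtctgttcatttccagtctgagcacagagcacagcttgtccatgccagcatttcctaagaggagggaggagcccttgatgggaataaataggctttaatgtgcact
Cp: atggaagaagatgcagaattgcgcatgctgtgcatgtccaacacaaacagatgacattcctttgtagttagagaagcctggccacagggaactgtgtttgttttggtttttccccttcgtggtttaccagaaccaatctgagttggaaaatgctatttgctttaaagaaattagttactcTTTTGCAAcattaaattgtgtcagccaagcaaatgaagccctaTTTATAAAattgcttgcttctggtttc
S1pr3: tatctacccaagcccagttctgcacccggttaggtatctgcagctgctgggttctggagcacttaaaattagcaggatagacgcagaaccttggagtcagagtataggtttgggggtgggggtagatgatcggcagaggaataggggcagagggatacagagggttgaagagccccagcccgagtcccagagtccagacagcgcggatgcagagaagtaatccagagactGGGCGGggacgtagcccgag
Lcn2: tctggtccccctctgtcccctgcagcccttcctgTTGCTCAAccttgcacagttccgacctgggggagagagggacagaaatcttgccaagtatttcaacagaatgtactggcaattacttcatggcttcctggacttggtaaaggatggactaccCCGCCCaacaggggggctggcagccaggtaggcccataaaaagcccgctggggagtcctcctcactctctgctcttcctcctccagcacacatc

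The motifs were searched on both strands. The window of Serpina3n held none of them. Cp had a C/EBP match (TTNNGCAA) that began 70 bases before the start and overlapping TATA matches (TATAAA) at 27 and 25 bases. S1pr3 had a GC box (GGGCGG) at 20 bases, and Lcn2 had a C/EBP match at 216 bases and a GC box at 94 bases. Among the 11 windows of the 10 genes, 3 held the C/EBP motif (Lcn2, Cp and Steap4), against 9.56% of the 32851 windows of all genes. The motif bound by STAT proteins (TTCNNNGAA) was found in 1 window, that of Steap4 (7.02% of all windows), and the AP-1 motif (TGANTCA) in 1 window of Cp (6.75%). A GC box was present in 4 windows (32.7% of all windows) and a TATA match in 3 (12.4%). A match is a description of letters, and C/EBP and STAT are named as factors known to act on acute phase genes.

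Between 2 and 18 months, Serpina3n and 2 of the 8 probe sets of Cp rose and 1 of the 3 probe sets of S1pr3 fell, while no probe set of Gfap, Vim, Lcn2, Steap4, Osmr, Cd44 or Timp1 passed the test. A probe set was called when the limma fit over all probe sets gave an adjusted p under 0.05 (Benjamini-Hochberg) and a change over 1.3-fold. By this rule 3 of the 29 probe sets rose, against 4.55% of all probe sets tested, and 1 fell, against 2.91%. With a gene represented by its probe set of highest mean level, 1 of the 10 genes rose (Serpina3n; 5.77% of 18193 genes) and 1 fell (S1pr3; 3.05%). The median change of the 29 probe sets was 0.13 on the log2 scale, and that of all probe sets was −0.06. All samples at 18 months lay above all young samples in 5 of the 29 probe sets, against 10.4% of all probe sets, and below them in 2, against 13.1%. For Vim 1450641_at and S1pr3 1437173_at, which are among the 5, this held only with young arrays 3 and 4 averaged. Of the 29, 24 were above the lower quartile of at least 1 sample. The other 5 were at or near background in every sample (Osmr 1459217_at and 1418675_at, Cd44 1452483_a_at and 1443265_at, and Cp 1441326_at) and none of them was called.

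**Figure D1:**
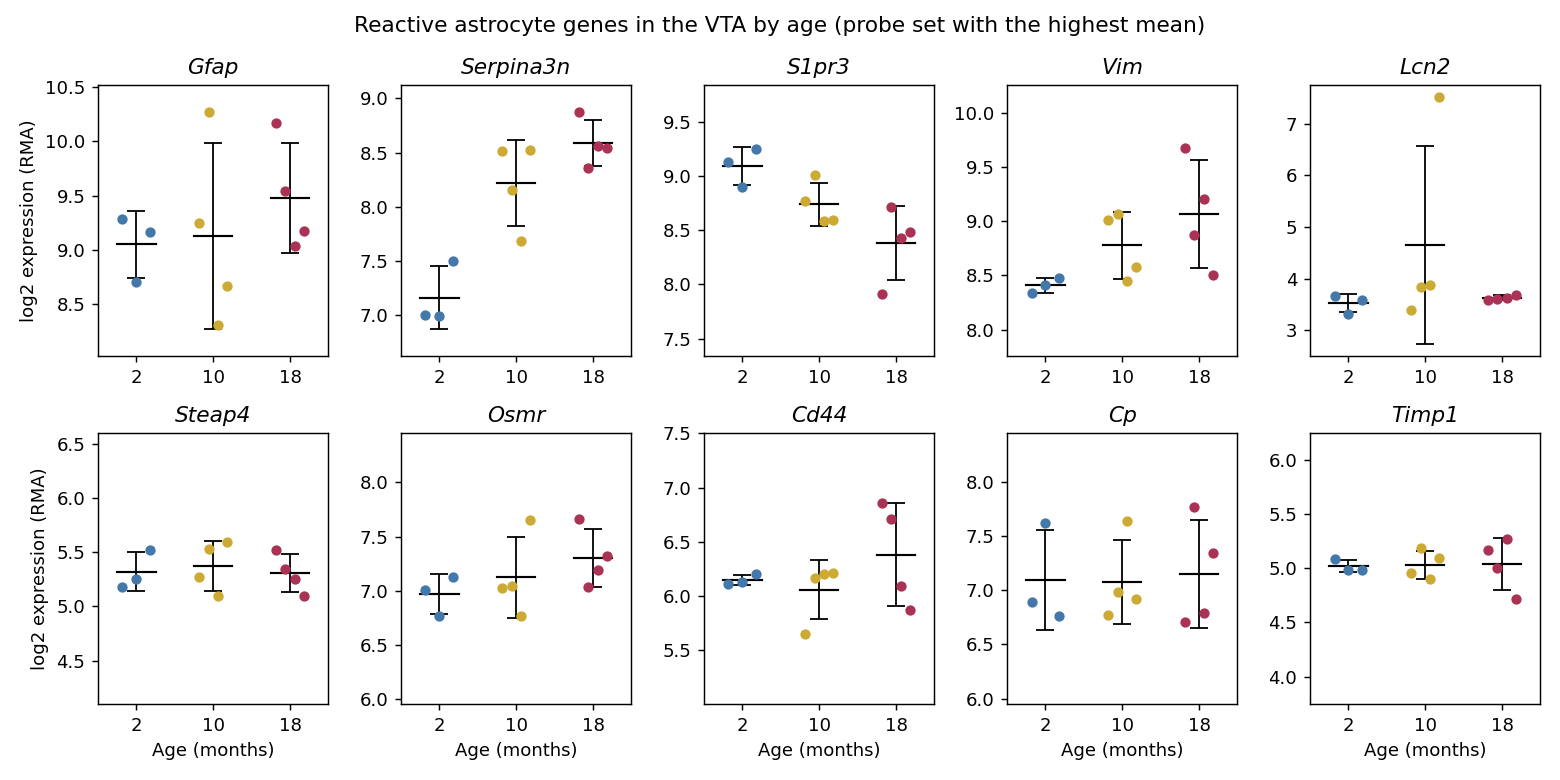
Log2 expression (vertical axis) of the 10 genes at 2, 10 and 18 months (horizontal axis), each at its probe set of highest mean level. Points are samples (n = 3, 4 and 4) and bars show the mean and SD. The samples of Serpina3n lay between 7.00 and 7.50 at 2 months and between 8.36 and 8.87 at 18 months, those of S1pr3 went the other way, and Lcn2 had 1 sample at 7.52. Each panel has its own scale.

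Serpina3n encodes a secreted inhibitor of serine proteases of the acute phase and is one of the genes most strongly raised in reactive astrocytes. Its values (1419100_at) were 7.00, 7.00 and 7.50 in the young samples, 8.51, 8.15, 7.69 and 8.52 at 10 months, and 8.87, 8.36, 8.57 and 8.55 at 18 months. Every later sample was above every young one, and the range at 18 months overlapped that at 10 months. From 2 to 18 months it rose 2.68-fold, a log2 change of 1.42 ± 0.21 (SE, n = 3 and 4; adjusted p = 0.00581). This call held in each fit that left out 1 array, with a change between 1.33 and 1.5 and an adjusted p of at most 0.0422. Serpina3n belongs to a cluster of similar genes, and how far the probe set tells them apart was not tested.

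Cp encodes ceruloplasmin, a copper-carrying ferroxidase that lets iron leave astrocytes and that is also an acute phase protein. Its 8 probe sets did not move alike. In 1448734_at the young samples were at 4.46, 4.56 and 4.39, those of 10 months at 4.98, 4.84, 5.15 and 4.93, and those of 18 months at 5.48, 5.47, 5.13 and 5.22. No later sample reached down to the young ones, although the young samples were below the lower quartile of their values. Young sample 3, at 4.39, averaged 4.13 on array 3 and 4.66 on array 4, so these arrays differed here. This probe set rose by 0.85 ± 0.12 SE (adjusted p = 0.0048), which is at least 1.64-fold when each young sample is set at the lower quartile of its values. In 1417495_x_at the values were 5.43, 5.11 and 5.34 at 2 months, 5.64, 5.81, 5.65 and 5.81 at 10 months and 6.08, 5.79, 5.85 and 5.93 at 18 months, again with no overlap between young and later samples. It rose by 0.62 ± 0.11 SE (1.54-fold, adjusted p = 0.0109), and the _x suffix marks probe sets with probes that may also match other transcripts. Both calls held without any 1 array. The other 6 probe sets had changes between −0.17 and 0.37 and were not called. The one with the highest mean level, 1417497_at, had 6.89, 7.62 and 6.76 in the young samples and 6.71, 7.77, 6.79 and 7.34 at 18 months, and its change was 0.06 ± 0.30 SE (adjusted p = 0.93). Another, 1417494_a_at, gave 0.37 ± 0.20 (adjusted p = 0.311), and 1448735_at gave −0.17 ± 0.25 (adjusted p = 0.735). When the 8 were averaged, Cp was not called.

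S1pr3 encodes a receptor for sphingosine 1-phosphate, a lipid signal, and is raised in reactive astrocytes. Its probe set of highest mean level, 1438658_a_at, had values of 9.12, 8.90 and 9.25 in the young samples, 8.77, 9.01, 8.58 and 8.59 at 10 months and 7.91, 8.71, 8.43 and 8.48 at 18 months. The samples at 18 months were all below the young ones, and those at 10 months lay between and overlapped both. It fell 1.63-fold (log2 change −0.71 ± 0.18 SE, adjusted p = 0.0374). The call was lost without young array 1 or 2, 10 months array 1 or 4, or 18 months array 1, 3 or 4 (change in these fits between −0.80 and −0.55, adjusted p up to 0.156). The other probe sets went in different directions. In 1437173_at the young samples (5.39, 5.13 and 5.66) were all below those at 18 months (5.69, 5.70, 5.85 and 5.80), with a change of 0.37 ± 0.12 that was not called (adjusted p = 0.0951). This separation rests on the averaging of young arrays 3 and 4. Young array 3 by itself was at 5.74, above 18 months arrays 1 and 2. In 1460661_at the young samples (4.90, 4.74 and 4.95) were all above those at 18 months (4.66, 4.66, 4.64 and 4.66), with a change of −0.21 ± 0.18 (adjusted p = 0.54). The mean of the 3 probe sets changed by −0.18 ± 0.13 (adjusted p = 0.463).

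**Figure D2:**
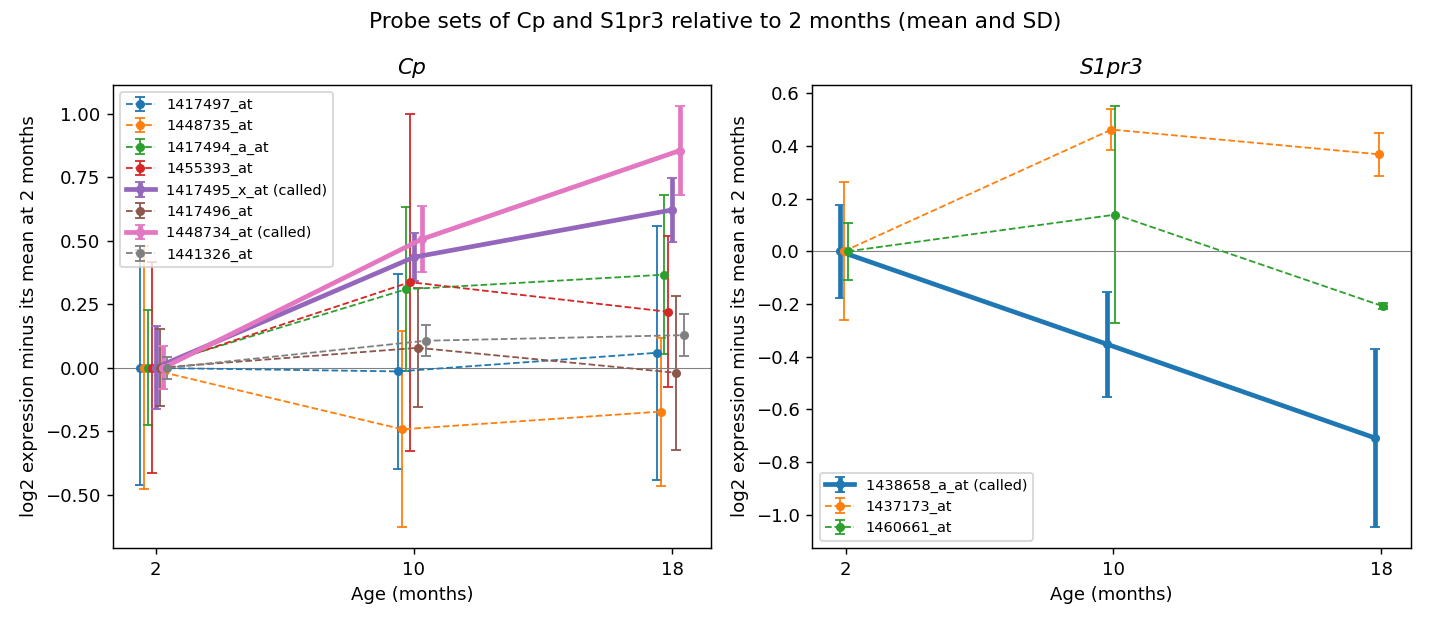
Mean log2 expression minus the mean at 2 months (vertical axis) against age in months (horizontal axis) for the 8 probe sets of Cp and the 3 of S1pr3, with SD bars (n = 3, 4 and 4) and points set slightly apart for clarity. Thick lines are the called probe sets, which reached 0.85 and 0.62 (Cp) and −0.71 (S1pr3) at 18 months, while another probe set of S1pr3 lay at 0.37.

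Gfap and Vim encode intermediate filament proteins, and Gfap is the usual marker of reactive astrocytes. At its probe set of highest mean level, 1440142_s_at, Gfap had values of 9.28, 8.70 and 9.17 at 2 months, 9.25, 10.27, 8.31 and 8.67 at 10 months, and 10.16, 9.54, 9.03 and 9.17 at 18 months. The ages overlapped, and both the highest and the lowest values were at 10 months. The change from 2 to 18 months was 0.43 ± 0.41 SE (95% interval −0.46 to 1.32, adjusted p = 0.58), an interval that holds both no change and more than a doubling. The change was 0.20 without 18 months array 1 and 0.25 without young array 2. The other probe sets gave 0.37 ± 0.31 and 0.28 ± 0.44 and were not called. Vim, an intermediate filament that mature astrocytes carry at low levels and that vessel cells and ependyma also carry, had 8.34, 8.41 and 8.48 in the young samples of 1450641_at and 9.68, 8.88, 9.21 and 8.51 at 18 months. With young arrays 3 and 4 averaged these 2 ages did not overlap, while the 10 months samples (9.02, 9.07, 8.45 and 8.58) overlapped both. Young array 4 by itself was at 8.512, above 18 months array 4 at 8.506, so the separate arrays did overlap. The lowest sample at 18 months was close to the highest young one, and the change of 0.66 ± 0.24 from 2 to 18 months was not called (adjusted p = 0.125). Of its other probe sets, 1456292_a_at gave 0.48 ± 0.25 (adjusted p = 0.274) and 1438118_x_at 0.00 ± 0.32 (adjusted p = 0.998).

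Osmr encodes the receptor chain for oncostatin M. In 1418674_at the young samples were at 7.01, 6.77 and 7.13, those of 10 months at 7.02, 7.05, 6.77 and 7.65, and those of 18 months at 7.66, 7.03, 7.20 and 7.32. The highest samples of the later ages stood above the rest, and the ages overlapped (change 0.33 ± 0.20 SE, adjusted p = 0.361). Cd44 encodes a receptor for hyaluronan, a sugar polymer of the matrix. Its 1434376_at had 6.11, 6.13 and 6.20 at 2 months, 5.65, 6.17, 6.21 and 6.21 at 10 months, and 6.86, 6.71, 6.10 and 5.87 at 18 months. At 18 months the samples were spread around the young ones on both sides (change 0.23 ± 0.23, adjusted p = 0.589, and from 0.076 without 18 months array 1 to 0.41 without 18 months array 4), and a further probe set, 1423760_at, gave 0.01 ± 0.21.

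Steap4 encodes a metalloreductase that reduces iron and copper, and Timp1 a secreted inhibitor of matrix metalloproteinases. In Steap4 (1425829_a_at) the young samples spanned 5.18 to 5.52 and the 18 months samples 5.10 to 5.52, with a change of −0.02 ± 0.15 SE (95% interval −0.34 to 0.31). Timp1 ran from 4.98 to 5.08 and from 4.71 to 5.27, with a change of 0.02 ± 0.13 (95% interval −0.28 to 0.31). Both intervals lay inside a 1.3-fold change in either direction. The other probe set of Steap4, 1460197_a_at, changed by 0.10 ± 0.30.

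Lcn2 encodes lipocalin 2, a secreted protein that binds iron-loaded bacterial siderophores and is among the genes most sharply induced in inflamed brain. Its only probe set, 1427747_a_at, was at 3.66, 3.32 and 3.58 in the young samples, at 3.39, 3.84, 3.88 and 7.52 at 10 months, and at 3.58, 3.61, 3.63 and 3.69 at 18 months. In 10 of the 11 samples it was below the lower quartile of the array, and 10 months sample 4 was at least 7.29-fold above every other sample, with the lower quartile of a sample standing in for background where the value lay below it. The change from 2 to 10 months (1.14 ± 0.75 SE, adjusted p = 0.532) came from that 1 sample, and from 2 to 18 months the change was 0.11 ± 0.75 (adjusted p = 0.951). Because the SE is shared across the ages, it is widened by the same sample.

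The genes that stood out in 10 months sample 4 were then listed by how far it lay above the highest other sample, a rule chosen after its Lcn2 value was seen. The next by this gap were Lrg1, an acute phase glycoprotein (7.57 against at most 5.81 elsewhere), and Ch25h, an enzyme of cholesterol oxidation that inflammatory signals induce (7.36 against 6.20). The gene 1810073O08Rik followed, at 5.16 against at most 4.17. After it, Slc38a5, an amino acid transporter, had 8.77 against at most 7.79, and Cxcl1, a chemokine that attracts neutrophils, 8.61 against 7.69. In 3 probe sets the gap of this sample was over 1 on the log2 scale, against 0 to 16 in each of the other samples (16 in young sample 2), so gaps over 1 were not particular to it. The gap of Lcn2 was larger (at least 2.87), and the largest gaps of the other samples were not compared with it. Among the 10 genes, at the probe set of highest mean level, Osmr (7.65), Serpina3n (8.52), Cd44 (6.21) and Steap4 (5.59) also had their highest 10 months value in this sample. Those of Osmr, Serpina3n and Cd44 were below the highest 18 months sample (7.66, 8.87 and 6.86), and that of Steap4 was above all others, of which the highest was at 5.53. Gfap, at 8.67, was below its highest 10 months value, and so were S1pr3, Vim, Cp and Timp1. The lead was slight for Serpina3n (8.51 in 10 months sample 1) and Cd44 (also 6.21 in 10 months sample 3). Another probe set of Cd44, 1423760_at, had its lowest value of all samples here (4.73). In the microglia and macrophage marker mean the sample had 8.41, inside the range of the other 10 months samples (8.18 to 8.45).

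**Figure D3:**
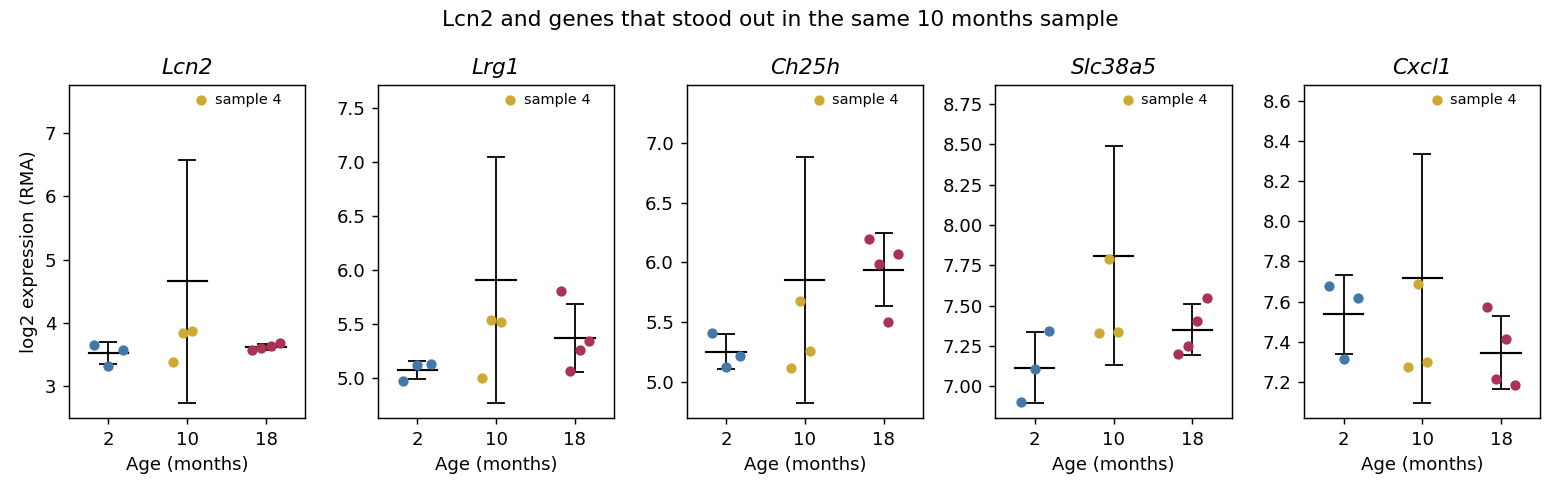
Log2 expression (vertical axis) of Lcn2 and of 4 genes that stood out in the same sample, at 2, 10 and 18 months (horizontal axis). Points are samples and bars the mean and SD (n = 3, 4 and 4). The point labelled sample 4 is 10 months sample 4, which had the highest value of each gene (7.52 for Lcn2, 7.57 for Lrg1, 7.36 for Ch25h, 8.77 for Slc38a5 and 8.61 for Cxcl1).

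From 2 to 10 months, Serpina3n was called, and 28 of the 29 probe sets were not. It rose 2.08-fold (log2 change 1.05 ± 0.21 SE, adjusted p = 0.0442), which is 1 of 29 probe sets against 0.837% of all probe sets called as higher, and 0 were called as lower against 0.524%. Over genes, 1 of 10 was called as higher against 1% and 0 as lower against 0.484%. The call was close to the threshold and was lost in 10 of the 12 fits that left out 1 array (change in these 0.95 to 1.08, adjusted p up to 0.259), and it was kept without young array 4 and without 10 months array 3 (1.11 and 1.23). Both called probe sets of Cp and S1pr3 1437173_at were higher in every sample at 10 months than in the young samples but were not called, with changes of 0.51 ± 0.12 (1448734_at, adjusted p = 0.0624), 0.43 ± 0.11 (1417495_x_at, adjusted p = 0.0821) and 0.46 ± 0.12 (1437173_at, adjusted p = 0.0885). With Serpina3n these were 4 of 29 probe sets without overlap on the higher side, against 6.35% of all, and 0 on the lower side, against 6.25%. S1pr3 1438658_a_at was at −0.35 ± 0.18 (adjusted p = 0.387), Vim 1450641_at at 0.37 ± 0.24 (adjusted p = 0.529) and Gfap 1440142_s_at at 0.07 ± 0.41 (adjusted p = 0.966). Both later ages were set against the same young samples.

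**Figure D4:**
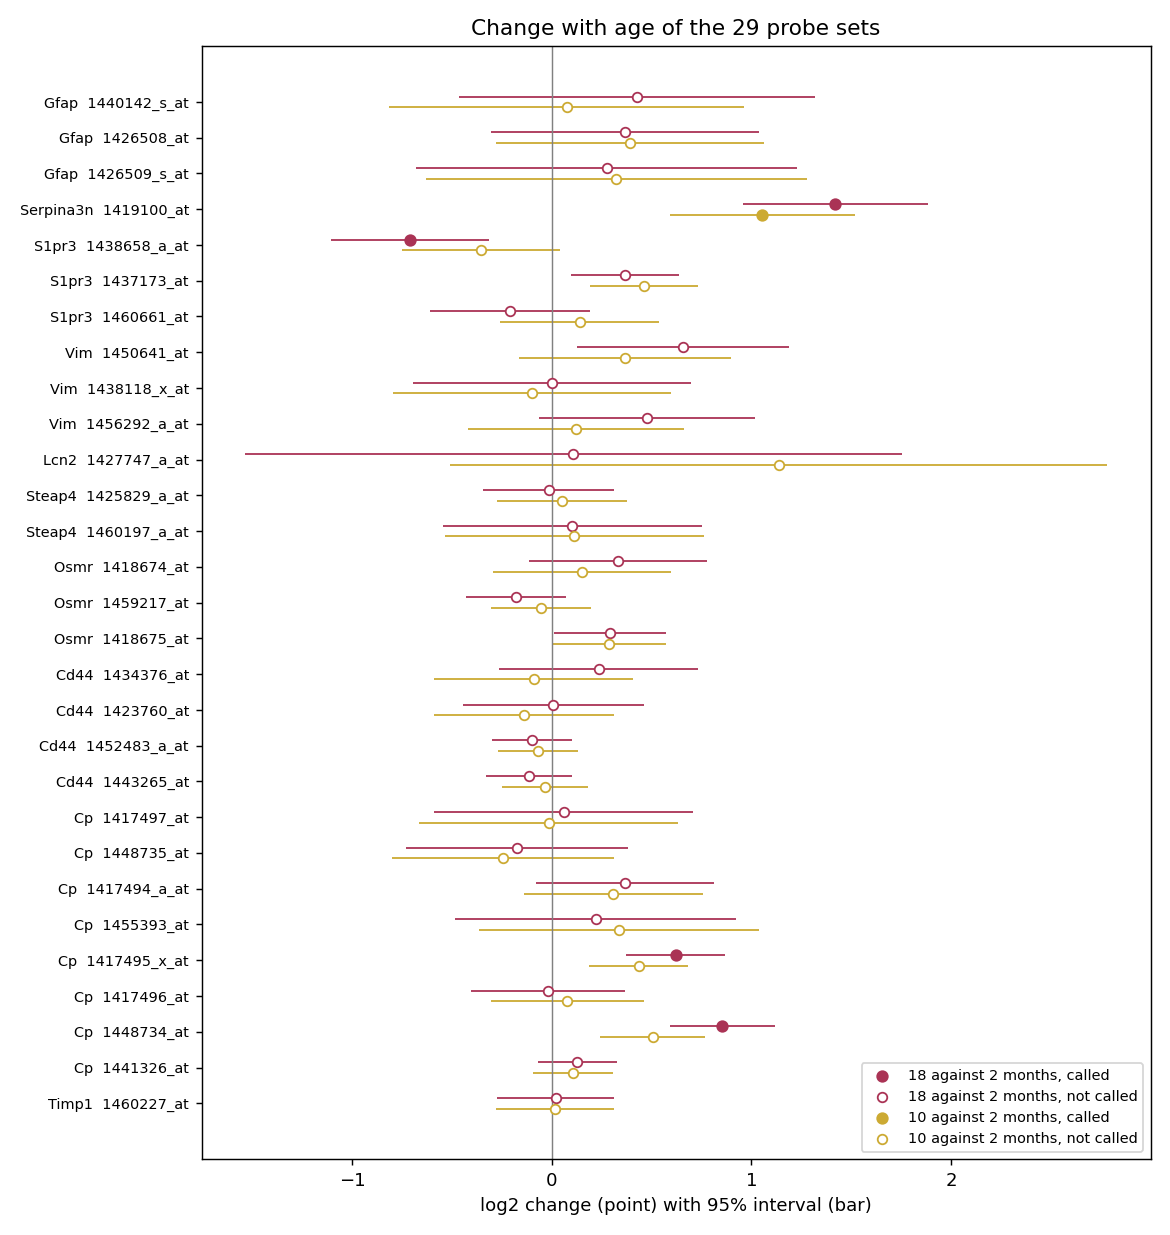
Log2 change (horizontal axis) of the 29 probe sets from 2 to 18 months and from 2 to 10 months, with the 95% interval of the limma fit. Filled points were called. At 18 months these were Serpina3n (1.42), 2 probe sets of Cp (0.85 and 0.62) and 1 of S1pr3 (−0.71), and at 10 months Serpina3n (1.05).

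From 10 to 18 months no probe set of these genes was called by limma, where 0.00222% of all probe sets (1 of 45037) were. In 1 of the 29 the unadjusted p was under 0.05 (Cp 1448734_at, change 0.35 ± 0.11, adjusted p = 0.847). Serpina3n had a change of 0.37 ± 0.20 (adjusted p = 0.847) and S1pr3 1438658_a_at of −0.36 ± 0.17 (adjusted p = 0.847). A contrast of the change from 2 to 10 months minus that from 10 to 18 months, which asks whether the intervals differed, called 0 of the 29 and 0% of all probe sets in limma (at an unadjusted p under 0.05, 2463 of all probe sets and 1 of the 29, S1pr3 1437173_at). The larger change of Serpina3n in the earlier interval (1.05 against 0.37) was therefore not shown to differ from that in the later one.

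Across the 11 samples the 10 genes were compared in 45 pairs at the probe sets of highest mean level, and no pair passed after adjustment (100000 permutations). In 5 pairs the unadjusted p of Pearson's r was under 0.05. Serpina3n and S1pr3 had r = −0.73 (permutation p = 0.00907, adjusted p = 0.233) and rho = −0.83 (permutation p = 0.00274, adjusted p = 0.0601), and without the 2 samples farthest from the median of Serpina3n r was −0.74. With the mean of each age subtracted, r was −0.16 (permutation p = 0.632), so no relation was detected within ages, where samples were few. Serpina3n and Osmr had r = 0.68 (permutation p = 0.0205, adjusted p = 0.252), rho = 0.82 (permutation p = 0.00341, adjusted p = 0.0601) and r = 0.65 without the 2 farthest samples, and r was 0.77 with the age means subtracted (permutation p = 0.0249, adjusted p = 0.433). Gfap and Vim had r = 0.68 (permutation p = 0.0224, adjusted p = 0.252) and rho = 0.46 (permutation p = 0.153, adjusted p = 0.615). Without the 2 farthest samples r was 0.35, so this relation rests on them, and with the age means subtracted r was 0.68 (permutation p = 0.0423, adjusted p = 0.433). Serpina3n and Vim had r = 0.73 (permutation p = 0.0103, adjusted p = 0.233), rho = 0.81 (permutation p = 0.00401, adjusted p = 0.0601) and r = 0.66 without the 2 farthest samples, and r was 0.49 with the age means subtracted (permutation p = 0.13, adjusted p = 0.45). For S1pr3 and Vim r was −0.65 (permutation p = 0.0293, adjusted p = 0.264) and rho −0.54 (permutation p = 0.0942, adjusted p = 0.615), and r was −0.22 without the 2 farthest samples, on which it therefore rests. With the age means subtracted, the lowest p was that of Serpina3n and Cp (at 1417497_at, which was not called), with r = −0.77 (permutation p = 0.00123, adjusted p = 0.0553), where r over the samples as they stood was −0.28 (permutation p = 0.395). The genes whose values lay closest to Serpina3n after centring were Fam171a1, B2m (which pairs with MHC class I heavy chains), Mpc1, Kcnip1 and Mcm6, with a root mean square difference of 0.21 to 0.22 on the log2 scale over 11 samples. Those closest to Gfap were Car3, Ogn, Ccdc3, Id3 and Fermt3, at 0.31 to 0.34.

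Other genes of the reactive state and of the pathways around these 10 were taken from lists and counted at 18 against 2 months, each gene at its probe set of highest mean level. All counts of listed genes, cell type markers included, stand against the 5.77% of all genes called as higher and the 3.05% called as lower. Of 9 measured genes of the inflammation-type (A1) list, 2 rose and 0 fell (median log2 change 0.37, against −0.02 over all genes). They were H2-D1, an MHC class I molecule (1.33 ± 0.21 SE, adjusted p = 0.00697), and Fbln5, a protein of elastic fibres (1.23 ± 0.18, adjusted p = 0.00492). Of the 8 other probe sets of H2-D1, 2 rose and 6, at −0.02 to 0.55, were not called. Every H2-D1 probe set that rose carries the _x suffix, so its probes may also match other transcripts. Those of H2-D1 without the suffix gave 0.55 ± 0.18 (adjusted p = 0.0785) and −0.02 ± 0.10 and were not called. How far the probe sets tell H2-D1 from other genes was not tested. The other probe set of Fbln5, at the lower level of 4.47, gave −0.08. Among 12 injury-type (A2) genes, 1 rose, Tm4sf1, a membrane protein (0.67 ± 0.17, adjusted p = 0.0378; list median −0.04). None of 3 further genes shared by reactive states (Hspb1, Cxcl10 and Aspg) was called by limma, nor had any an unadjusted p under 0.05 (median 0.03).

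Of 15 genes of gp130 cytokine and Stat3 signalling, 1 rose and 0 fell (median −0.03). This was Jak1, the kinase that acts below gp130 (0.95 ± 0.20 SE, adjusted p = 0.0174), whose other probe sets gave 1.3 ± 0.36 (adjusted p = 0.0507) and −0.57 ± 0.19 (adjusted p = 0.0968). The cytokine Osm had a change of −0.30 ± 0.18, Stat3 of 0.04 ± 0.13 and Socs3, its feedback inhibitor, of −0.36 ± 0.15, and none was called. Among 9 microglial inducers of the reactive state 0 were called by limma (2 at an unadjusted p under 0.05, median −0.05), with Il1a at −0.07 ± 0.20, Tnf at −0.12 ± 0.15 and C1qa at 1.08 ± 0.48 (adjusted p = 0.194).

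In the sphingosine 1-phosphate pathway, 2 of 9 genes other than S1pr3 rose and 0 fell (median −0.16). The receptor S1pr1 rose by 0.92 ± 0.25 SE (adjusted p = 0.0494), and Sgpl1, the lyase that breaks the lipid down, by 0.64 ± 0.17 (adjusted p = 0.0428), both near the threshold. Of 12 genes of iron and copper handling, 1 fell and 0 rose (median 0.12): Steap3, a metalloreductase of the same family as Steap4, fell by 0.85 ± 0.14 (adjusted p = 0.00663) and was also called at 10 months (−0.63 ± 0.14, adjusted p = 0.0492), while its other probe sets, both at low levels (3.63 and 4.10), gave 0.19 and 0.02 at 18 months. In the list of metalloproteinases and other TIMPs, 1 of 10 fell (Mmp24, −0.64 ± 0.15, adjusted p = 0.0247; median −0.06). Of 9 other intermediate filament and linker genes 1 fell (Lmnb1, a nuclear lamin, −0.53 ± 0.14, adjusted p = 0.0401; median 0.17), of 3 other serpins 1 rose (Serpini1, neuroserpin, 0.73 ± 0.20, adjusted p = 0.0486; median 0.17), and of 7 ligands and partners of Cd44 0 were called by limma (3 at an unadjusted p under 0.05, median −0.10). No other probe set of Tm4sf1, Sgpl1, Mmp24, Lmnb1 or Serpini1 was called.

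Markers of cell types and array controls moved with age beside these results. Of 16 general astrocyte genes, 1 rose (Mlc1, 0.59 ± 0.16 SE, adjusted p = 0.0416) and 0 fell, and the mean of the list was 11.29 to 11.40 at 2 months and 11.53 to 11.78 at 18 months (exact permutation p = 0.0286, which is the lowest value possible with so few samples; adjusted p = 0.0952 among 30 tests). Of 13 microglia and macrophage genes, 6 rose and 0 fell, with a list mean of 7.75 to 8.01 and 8.26 to 8.57. For vessels 0 of 11 genes rose and 1 fell (list mean 8.53 to 8.57 and 8.51 to 8.70), and for meninges 0 of 10 rose and 1 fell (6.29 to 6.60 and 6.13 to 6.76), so the means of these lists overlapped between 2 and 18 months. Of 9 choroid plexus and ependyma genes 1 rose and 1 fell, of 7 oligodendrocyte genes 0 were called by limma (1 at an unadjusted p under 0.05), of 8 neuron genes 3 rose and 1 fell (list mean 11.82 to 12.20 at 2 months and 12.40 to 12.53 at 18 months, without overlap), and of 10 dopaminergic neuron genes 1 rose and 2 fell. Among the neuron genes counted as higher, Snap25 and Syt1 each had another probe set that fell (−0.96 ± 0.15, adjusted p = 0.00617, and −0.99 ± 0.25, adjusted p = 0.0364). Further probe sets of the general astrocyte genes had changes from −0.57 (Gja1) to 1.32 (Slc1a3) and were not counted. Th, which defines dopaminergic neurons, and the astrocyte genes Aqp4 and Slc1a2 were above the upper quartile of all 11 samples. The part of any cell type in the changes of the 10 genes was not tested.

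The difference between 3′ and 5′ probe sets of the control genes Actb and Gapdh was 3.29 to 3.63 at 2 months, 1.69 to 2.44 at 10 months and 1.64 to 2.17 at 18 months on the log2 scale, so the young samples stood apart in how far the label reached along a transcript. With this measure in the limma fit, no probe set of the table was called at 18 against 2 months (1748 at an unadjusted p under 0.05, among them 5 of the 29). The changes at 18 months were then 1.33 ± 0.61 SE for Serpina3n, 0.94 ± 0.34 and 1.05 ± 0.29 for the called probe sets of Cp, and −0.56 ± 0.52 for S1pr3, of similar size for Serpina3n and Cp 1448734_at and with about 3 times the error. Cp 1448735_at moved from −0.17 to 1.72 ± 0.38 and Gfap from 0.43 to 1.98 ± 1.06, also not called. The measure set all young samples apart from the later ones, so its part could not be told apart from that of age. It was not tested beyond this fit. The mean of the poly-A controls, bacterial transcripts added to the RNA before labelling, was 5.97 to 6.14 at 2 months, 6.25 to 6.46 at 10 months and 6.60 to 7.36 at 18 months, and the ages stayed apart (p = 0.0286 by the exact permutation test for each of the 3 comparisons, adjusted p = 0.0952 among 30 tests). The part of these controls in the results could not be told apart from that of age and was not tested.

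**Figure D5:**
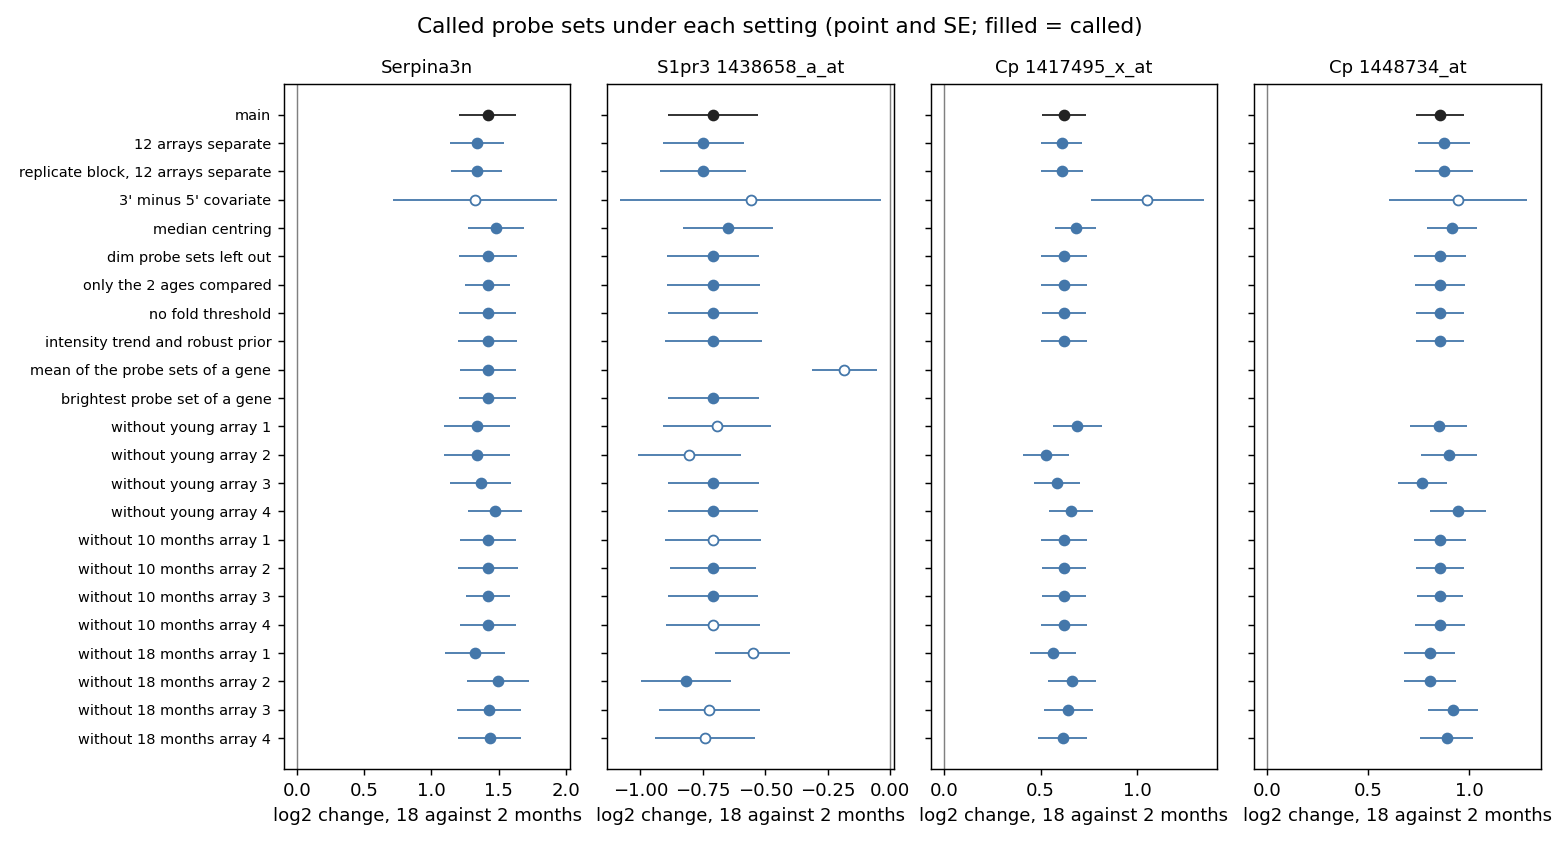
Log2 change from 2 to 18 months (horizontal axes, which differ between panels) of the 4 called probe sets under each setting of the analysis (rows). Points are estimates, bars the SE, and filled points were called. Serpina3n stayed between 1.33 and 1.5, and S1pr3 1438658_a_at between −0.82 and −0.18, where the mean of its probe sets gave −0.18. Panels of Cp have no point where the gene was represented by another value.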

How the data were processed

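The authors dissected the VTA from C57BL/6 mice, pooled 5 mice per replicate, extracted RNA, amplified it in a two-cycle labelling protocol and hybridised it to Affymetrix mouse arrays. Each probe set has a deposited log2 value, which the authors obtained by RMA normalization, and the submitters' processing notes name limma 3.4.5. Array values ran from 2.40 to 14.7, array medians from 6.12 to 6.21. Arrays have no read depth, and their number limits the precision.

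Of the probe sets, 64 controls were left out and 45037 tested, of which 34945 had 1 gene, 932 several and 9160 none. One limma 3.58.1 model (R 4.3.3) covered all ages, with age as the only term, and p-values were adjusted by Benjamini-Hochberg over all probe sets. The contrast of the intervals had no fold threshold. Permutation tests were two-sided, and the ranks for rho were taken with scipy 1.17.1. Fits were tested on simulated data. Each gene was described at its probe set of highest mean level with its other probe sets beside it, and genes outside the 10 were named from 19 lists (up to 4 called genes each, or defining markers). The uncalled genes named from the cytokine, inducer and pan-reactive lists, and the companions of Lcn2, were chosen after their values were seen. The 10 genes and all lists were chosen with earlier results of these data known. Alternatives were 12 separate arrays, a replicate block (with 12 separate arrays), the 3′ minus 5′ covariate, median centring, a filter on dim probe sets, only the ages compared, no fold threshold, an intensity trend with robust prior, 1 value per gene, and leaving out each array.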

Additional observations from a re-analysis of the deposited data

Results flagged for a closer look

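Samples far from the others of their age were looked for in the 29 probe sets at 10 and 18 months (58 groups of 4 samples, of which chance flags about 1 in 20), and 2 were found. Lcn2 was at 7.52 in 10 months sample 4, against 3.39 to 3.88 in the other 10 months samples (gap over range 0.881). Cd44 1434376_at was at 5.65 in 10 months sample 1, below the other 3 at 6.17 to 6.21 (gap over range 0.921).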

How the results depend on the processing

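At 18 against 2 months, the number of the 29 probe sets called was 4, and it was 0 with the 3′ minus 5′ covariate, 1 with the mean of the probe sets of a gene and 2 with the probe set of highest mean level (each gene counted once), 5 after median centring, where S1pr3 1437173_at was added (0.43 ± 0.12, adjusted p = 0.0497), 4 with a replicate block, in a fit that also took the 12 arrays as separate samples, and 3 to 4 when an array was left out. At 10 against 2 months the number was 1, and it was 0 with the replicate block on the 12 separate arrays (1 with 12 separate arrays and no block), with the covariate, with only the ages compared, with the intensity trend and with the mean of a gene, 2 after median centring, where Cp 1417495_x_at was added (0.48 ± 0.11, adjusted p = 0.0499), and 0 to 1 when an array was left out. The replicate numbers did not pair the samples (12 pairs, r from −0.61 to 0.43, 4 over 0.1). The changes of Serpina3n and of the called probe sets of Cp at 18 months lost their call only with the covariate among the fits to single probe sets. Changes near 0 turned sign: Steap4 to 0.52 with the covariate, 0.0443 after median centring and 0.0437 as the mean of its probe sets (−0.087 to 0.0529 when an array was left out), Cp 1417497_at to between −0.15 and 0.32 and Timp1 to between −0.0576 and 0.127 when an array was left out. Over all probe sets, 3359 were called at 18 against 2 months (2047 higher and 1312 lower, or 2540 and 926 after median centring), 423 without young array 1, 1668 without young array 2, 1791 genes by the probe set of highest mean level, 1006 by the mean of a gene and 0 with the covariate, 1937 to 2111 without an 18 months array and 5326 without 10 months array 3. At 10 against 2 months 613 were called (377 higher and 236 lower, or 541 and 162 after median centring), 977 with 12 arrays, 3 with the replicate block on 12 arrays, 0 with the covariate or only the ages compared, 217 with the intensity trend, 57 and 331 with 1 value per gene, and 1 to 1256 when an array was left out. The cause was not tested. Signal over background limits Lcn2, the young samples of Cp 1448734_at and the 5 dim probe sets.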
